A study of Mus musculus with 22 samples.

Results

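The response to mechanical loading, pooled over wild-type and Tlr4 conditional knockout mice, was measured in the ulna, a forearm bone. The aim was to find changes that go the same way in both genotypes. The comparison took in all 22 libraries of the study, which form 11 pairs: the loaded right ulna and the non-loaded left ulna of the same mouse. Each pair was identified by its mouse number, and both genotypes were pooled. 4 pairs came from Tlr4 conditional knockout mice (CKO), numbered 688, 691, 693 and 698. 7 pairs came from wildtype mice (WT), numbered 685, 686, 687, 690, 692, 694 and 699. Tlr4 encodes the receptor for bacterial lipopolysaccharide, and the study's title places its loss in osteoblasts. The driver of the deletion, the age and sex of the mice, the loading regime and the time of harvest were not stated in what was used here. Total RNA was taken from the middle part of each ulna. Loading was always applied to the right limb, so side and load cannot be told apart.

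Bone adapts its mass and shape to the strain it carries. Osteocytes, the cells buried in the mineralised matrix, are the main sensors of strain, and osteoblasts on the bone surface lay down new matrix when strain is high. Sensing runs through calcium entry, prostaglandin release and kinase cascades, which first switch on immediate early genes such as the Fos and Egr families. Secreted Wnt proteins then act through the Lrp5 and Lrp6 receptors to drive bone formation, and osteocytes restrain them with sclerostin, the product of Sost.

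The libraries held 21999891 to 37522196 counts in loaded bones (median 27487361) and 22744319 to 42833729 counts in non-loaded bones (median 28986432), and the loaded limb was the deeper of the pair in 6 of 11 mice. The defining markers of bone cells were present in every library: Dmp1 of osteocytes was at 99.4 CPM or more (CPM are counts scaled to the size of the library), Col1a1 of osteoblasts at 1246 CPM or more, and Ctsk of osteoclasts at 66.5 CPM or more. Muscle was present too: 20 skeletal muscle genes took 5.89% to 16.6% of the counts in loaded bones (median 11.4%) and 2.96% to 15.3% in non-loaded bones (median 10.7%), higher on the loaded side in 7 of 11 mice. In a piece of bone, fewer cells of a type and less RNA per cell cannot be told apart. Tlr4, the targeted gene, overlapped between genotypes: it was at 24.9 to 33.8 CPM in CKO and at 25.0 to 42.1 CPM in WT libraries, so it does not check the labels of this conditional deletion. Its loading effect was 0.01 ± 0.06 (log2, SE). Ltbp2, which encodes a matrix protein and was picked after its values were seen, was at 205 to 344 CPM in 7 of the 8 CKO libraries and at 26.4 to 73.9 CPM in 13 of the 14 WT libraries. The loaded library labelled CKO mouse 688 had 38.4 CPM and the loaded library labelled WT mouse 686 had 381 CPM. By this gene these libraries go against their genotype labels, so the called genes are also given without mice 686 and 688. Some of the values that compare the genotypes are given without them too, and the other values per genotype include them. Both of these libraries are loaded bones by label, and the fit pairs each with the non-loaded bone of its labelled mouse.

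In the pooled fit 10 genes were called higher in loaded bone, and each of them was higher in the loaded limb of all 11 mice. The 8 described here are Wnt1, Fosb, Egr1, Arc, Gem, Mt2, Ccl2 and Dmp1. Genes were called when the edgeR quasi-likelihood test with the mouse as a block gave an adjusted p under 0.05 over the 17585 genes tested (Benjamini-Hochberg). The called genes make up 0.0569% of the genes tested. No gene was called lower, a share of 0%. At an unadjusted p under 0.05, 377 genes were higher (2.14%) and 301 were lower (1.71%). At an unadjusted p under 0.001 the split was 44 higher (0.25%) and 2 lower (0.0114%). Across all genes, 29 were higher in the loaded limb of all 11 mice (0.165%) and 5 were lower in all 11 (0.0284%).

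**Figure D1:**
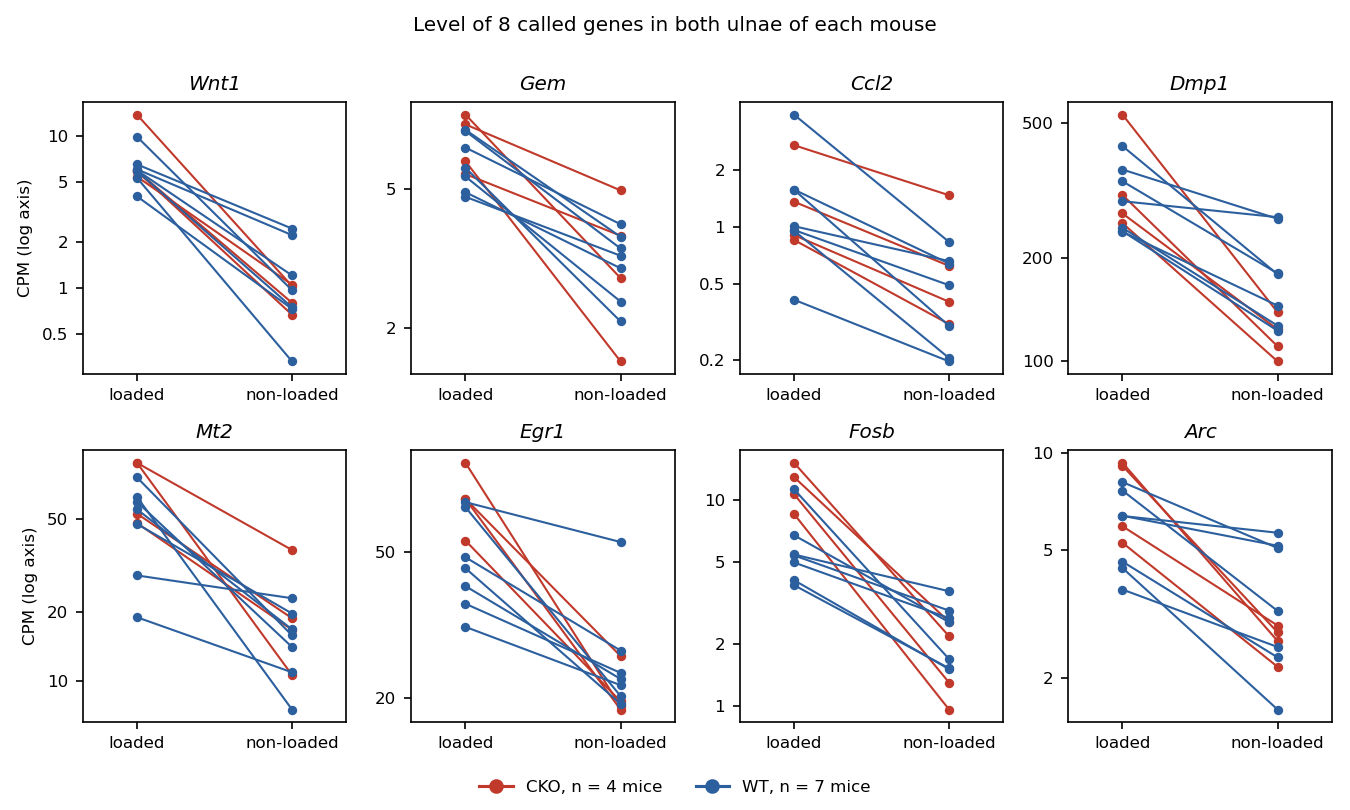
Level of 8 called genes in CPM (log axis) in the loaded and the non-loaded ulna of each mouse. Each line joins the limbs of 1 mouse, 4 CKO mice in red and 7 WT mice in blue; every line is lower on the non-loaded side, by 0.16 log2 units for Dmp1 in WT mouse 685 and by 3.76 for Wnt1 in WT mouse 694.

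Wnt1 had the largest change among the called genes. It encodes a secreted Wnt ligand whose loss causes bone fragility in people and in mice, and it lies on chromosome 15 (98789857 to 98793837, plus strand, GRCm38). In the CKO mice 688, 691, 693 and 698 the level was 5.39, 5.88, 13.8 and 5.85 CPM in loaded bones, against 1.05, 0.799, 1.03 and 0.667 CPM in non-loaded bones. In WT mice the lowest, median and highest levels were 4.002, 5.93 and 9.87 CPM in loaded bones, against 0.329, 0.966 and 2.45 CPM in non-loaded bones. No loaded library reached down to any non-loaded library in either genotype. The pooled log2 fold change was 2.69 ± 0.24 (SE, n = 11 pairs), a 6.45-fold rise (edgeR adjusted p = 0.00107). It was 3.03 ± 0.40 in CKO and 2.49 ± 0.30 in WT mice. Without mice 686 and 688 the log2 fold change was 2.89 (edgeR adjusted p = 0.00501).

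Among the other Wnt and R-spondin ligands no gene passed the edgeR test. Of 15 tested ligands, 1 was called and 10 had a pooled log2 fold change above 0 (66.7%, against 52% of all genes). In both genotypes 5 were above 0 (33.3%, against 18.4% of all genes tested). The median of the ligands was 0.24, and −0.01 with muscle and marrow scores as covariates. Wnt7b, a ligand made by bone-forming cells, had 1.10, 2.30 and 3.60 CPM in loaded bones (lowest, median and highest of 11), against 0.0250, 1.04 and 2 CPM in non-loaded bones. Its log2 fold change was 1.56 ± 0.40, with a higher level in the loaded limb of 10 mice (edgeR adjusted p = 0.541); DESeq2 called it (adjusted p = 0.0124), and so did limma voom with quality weights (adjusted p = 0.0449). Wnt10b, whose start lies 11706 bases from that of Wnt1 on the opposite strand, had a log2 fold change of 0.59 ± 0.16 (adjusted p = 0.65). Wnt16, a ligand that protects cortical bone, had a log2 fold change of −0.31 ± 0.13 (adjusted p = 0.9995). The secreted Wnt antagonists did not pass the edgeR test either: of 16 tested, 9 were above 0 (56.2%, against 52% of all genes) and 2 were above 0 in both genotypes (12.5%, against 18.4%). Sost had a log2 fold change of −0.13 ± 0.19, with values of 0.27 in CKO and −0.36 in WT mice, and Dkk1 had −0.25 ± 0.19. Of the 14 Wnt target genes tested 6 were above 0 (42.9%, against 52% of all genes), with a median of −0.02. Of the 21 receptor genes 12 were above 0 (57.1%), with a median of 0.07. The median of all genes was 0.01.

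Early genes and the calcium channel regulator Gem made up 4 of the 10 called genes. Fosb, an AP-1 subunit that pairs with Jun proteins, lies on chromosome 7 (19302696 to 19310051, minus strand). CKO mice 688, 691, 693 and 698 had 15.3, 10.8, 8.61 and 13.0 CPM in loaded bones, against 2.18, 1.30, 0.96 and 2.57 CPM in non-loaded bones. WT mice had 3.87, 5.41 and 11.3 CPM in loaded bones (lowest, median and highest), against 1.51, 2.56 and 3.61 CPM in non-loaded bones. Loaded and non-loaded bones did not overlap, and the loaded bones labelled CKO mice 688 and 698 were above every bone labelled loaded WT. By Ltbp2 the loaded library of mouse 688 goes against its genotype label, which leaves mouse 698 (13.0 CPM) for this comparison. Fosb had a log2 fold change of 1.87 ± 0.27 (edgeR adjusted p = 0.0249), with 2.83 ± 0.30 in CKO and 1.32 ± 0.22 in WT mice; without mice 686 and 688 it was 1.81 (edgeR adjusted p = 0.303). Since Egr1 was called as well, the Fosb promoter was searched for the letters GCGNGGGCG, the box bound by EGR proteins, on both strands. The CRE box TGACGTCA, and the AP-1 and metal response letters given below for Mt2, had no match there. Whether EGR proteins act on Fosb was not tested. The 300 bases from 250 before to 50 after the start (RefSeq, GRCm38.p6, chr7:19309996-19310295, minus strand, shown 5′ to 3′ on the gene's strand) hold 1 match, in capitals, whose first base is 50 before the start; 5.55% of 32851 promoters of this length hold this box.
Fosb promoter: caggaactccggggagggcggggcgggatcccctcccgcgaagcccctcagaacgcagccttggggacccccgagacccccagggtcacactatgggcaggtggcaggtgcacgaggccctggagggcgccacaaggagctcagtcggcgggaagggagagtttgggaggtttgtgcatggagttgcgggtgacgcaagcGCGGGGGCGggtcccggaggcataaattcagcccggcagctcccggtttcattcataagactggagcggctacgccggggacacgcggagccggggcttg

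Egr1, a zinc finger transcription factor induced within minutes by many stimuli, lies on chromosome 18 (34859823 to 34864984). In CKO mice 688, 691, 693 and 698 it had 53.6, 69.6, 69.6 and 87.3 CPM in loaded bones, against 19.5, 18.6, 25.9 and 18.9 CPM in non-loaded bones. In WT mice it had 31.2, 45.03 and 68.1 CPM in loaded bones (lowest, median and highest), against 19.2, 22.5 and 53.1 CPM in non-loaded bones. The CKO groups were far apart, and the WT groups overlapped through the high non-loaded bone of mouse 699. The pooled log2 fold change was 1.19 ± 0.17 (SE, n = 11; edgeR adjusted p = 0.0228), with 1.75 in CKO and 0.87 in WT mice. Without mice 686 and 688 it was 1.15 (adjusted p = 0.311), of similar size and no longer called.

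Arc, best known as an activity-regulated gene of neurons, lies on chromosome 15 (74669083 to 74672570, minus strand). In the same order of CKO mice, it had 5.92, 9.11, 9.31 and 5.26 CPM in loaded bones, against 2.91, 2.77, 2.60 and 2.17 CPM in non-loaded bones. WT mice had 3.76, 6.36 and 8.11 CPM in loaded bones (lowest, median and highest), against 1.60, 3.23 and 5.65 CPM in non-loaded bones, with overlap between the WT groups only. Arc had a log2 fold change of 1.02 ± 0.16 (edgeR adjusted p = 0.0452), and 1.06 without mice 686 and 688 (edgeR adjusted p = 0.311). Gem, a small GTPase of the RGK family that restrains voltage-gated calcium channels, lies on chromosome 4 (11704457 to 11714752, plus strand). Its level was 5.53, 6.03, 8.21 and 7.70 CPM in the loaded bones of CKO mice 688, 691, 693 and 698, against 3.68, 1.60, 2.78 and 4.97 CPM in their non-loaded bones. WT mice had 4.76, 5.77 and 7.42 CPM in loaded bones (lowest, median and highest), against 2.08, 3.22 and 3.97 CPM in non-loaded bones. The groups did not overlap within either genotype. Gem had a log2 fold change of 1.04 ± 0.13 (edgeR adjusted p = 0.0148), with 1.17 in CKO and 0.97 in WT mice, and 1.07 without mice 686 and 688 (edgeR adjusted p = 0.123).

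The families around these genes were mostly above 0 and below the threshold of the test. Members named without a call, here and below, were in most cases chosen after their values were seen. All gene lists were drawn up with earlier results of these data known, so their shares describe the listed genes and are not independent support. For 10 AP-1, ATF and Maf genes 1 was called, 9 had a pooled log2 fold change above 0 (90%, against 52% of all genes) and 8 were above 0 in both genotypes (80%, against 18.4%), with a median of 0.53. Their mean limb difference was above 0 in all 11 mice, from 0.36 in WT mouse 694 to 1.37 in CKO mouse 691. The same mice were lowest and highest for the mean of the 20 muscle genes, at −1.29 in mouse 694 and 2.58 in mouse 691, and also for the EGR and RGK lists described next. With muscle and marrow scores as covariates the median log2 fold change was 0.49 for the AP-1 list, 0.19 for the EGR list and 0.23 for the RGK list, against 0.53, 0.20 and 0.26 without them. Fosl1, an AP-1 subunit, had the largest log2 fold change of all genes tested, at 3.61 ± 0.63, but its fitted size depends on the prior count, since 5 of the 11 non-loaded bones held 0 counts. It was higher in 10 mice (edgeR adjusted p = 0.0911). Junb had a log2 fold change of 0.50 ± 0.10 (adjusted p = 0.204), Atf3 of 1.01 ± 0.29 (adjusted p = 0.757), and Fos of 0.59 ± 0.18 (adjusted p = 0.837). Among 21 tested genes of the EGR, NR4A and other early families, 2 were called, 20 were above 0 (95.2%, against 52%) and 16 were above 0 in both genotypes (76.2%, against 18.4%). Egr3 had a log2 fold change of 0.70 ± 0.17, Egr2 of 0.67 ± 0.19 and Csrnp1, an early gene that responds to axin, of 0.38 ± 0.10. Nr4a1, an orphan nuclear receptor, had 0.22 ± 0.23, with 0.69 in CKO and −0.04 in WT mice.

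Of 11 tested RGK, calcineurin and RGS genes 1 was called, 10 were above 0 (90.9%, against 52% of all genes) and 9 were above 0 in both genotypes (81.8%, against 18.4%). Their median was 0.26. Rrad, an RGK GTPase like Gem, had 6.87, 12.2, 4.76 and 56.4 CPM in the loaded bones of CKO mice 688, 691, 693 and 698, against 2.67, 1.55, 1.30 and 2.40 CPM in their non-loaded bones. In WT mice it had 2.35, 6.13 and 12.01 CPM in loaded bones (lowest, median and highest), against 1.53, 2.02 and 2.48 CPM in non-loaded bones. It was higher in all 11 loaded limbs, with mouse 698 far above the others, and its log2 fold change was 1.83 ± 0.36 (edgeR adjusted p = 0.151). Rcan1, a feedback inhibitor of calcineurin, had 0.74 ± 0.20, and Rgs16, which shuts off G protein signals, had 0.71 ± 0.15. Of 14 feedback genes of the ERK kinase cascade 0 were called, 11 were above 0 (78.6%, against 52% of all genes) and 9 were above 0 in both genotypes (64.3%, against 18.4%). Dusp5, a phosphatase that acts on ERK in the nucleus, had a log2 fold change of 0.53 ± 0.13, and Spry4, a sprouty inhibitor, had 0.43 ± 0.15.

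**Figure D2:**
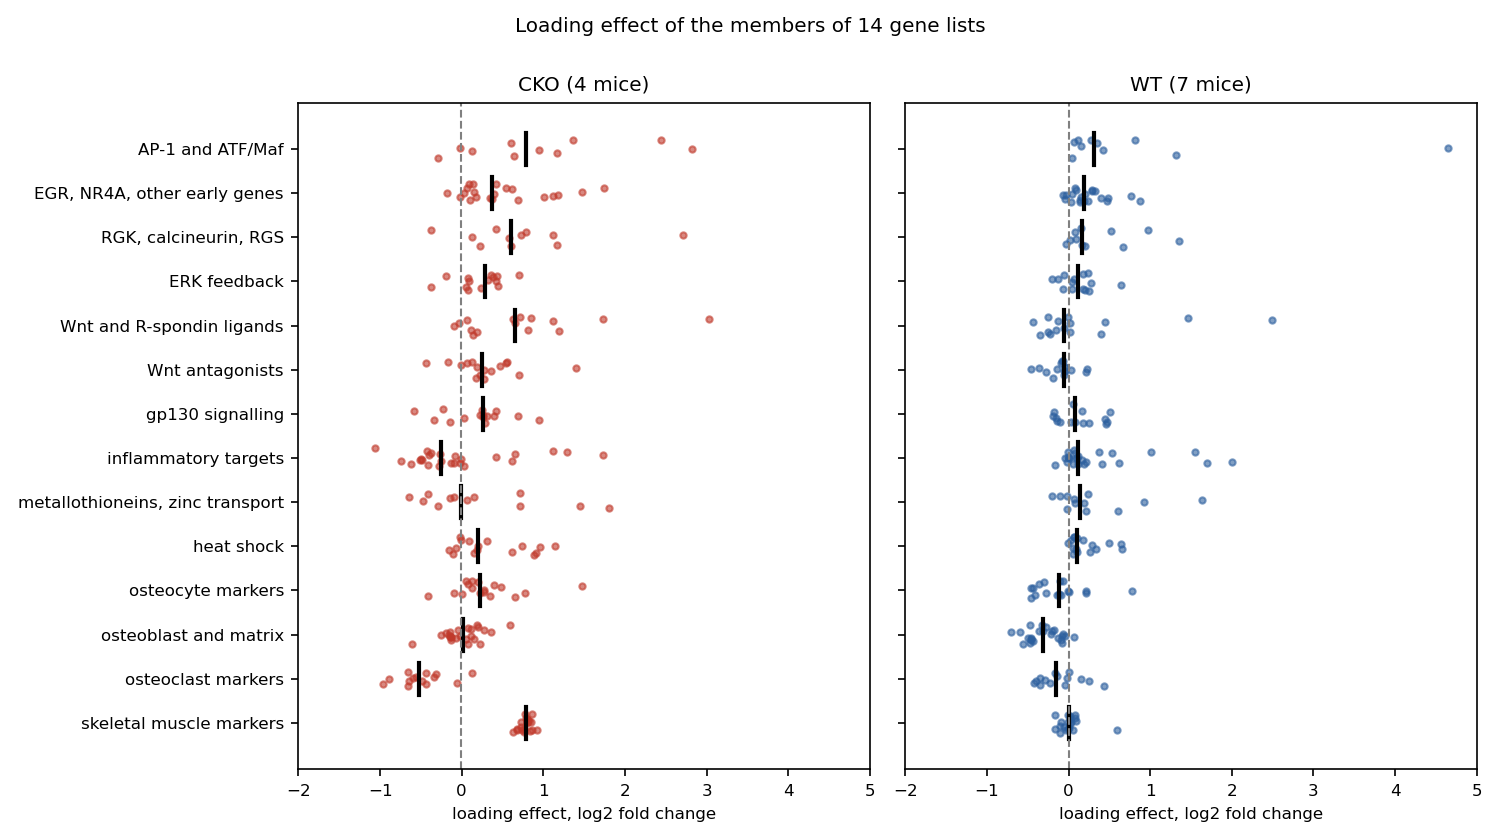
Loading effect (log2 fold change, loaded over non-loaded) of each member of 14 gene lists, in 4 CKO mice (left) and in 7 WT mice (right). Points are genes, black bars the median of the list and the dashed line the median of all genes tested; the AP-1 median is 0.79 in CKO and 0.31 in WT mice, and the osteoclast median is −0.52 in CKO and −0.15 in WT mice.

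Mt2 encodes a metallothionein, a small protein that binds zinc and copper and is induced by metals, glucocorticoids and oxidative stress. It lies on chromosome 8 (94172664 to 94173568, plus strand). CKO mice 688, 691, 693 and 698 had 52.8, 87.5, 48.1 and 87.4 CPM in loaded bones, against 18.7, 10.7, 16.7 and 36.8 CPM in non-loaded bones. WT mice had 18.9, 55.1 and 75.7 CPM in loaded bones (lowest, median and highest), against 7.57, 15.8 and 22.8 CPM in non-loaded bones. The CKO groups were apart, and the WT groups overlapped through the low loaded bone of mouse 694. The log2 fold change was 1.70 ± 0.24 (SE, n = 11; edgeR adjusted p = 0.0228), with 1.81 in CKO and 1.64 in WT mice, and 1.78 without mice 686 and 688 (edgeR adjusted p = 0.231). Mt1, its neighbour 5513 bases downstream, had 30.2, 70.5 and 130 CPM in loaded bones (lowest, median and highest of 11), against 20.9, 31.6 and 44.1 CPM in non-loaded bones. Its log2 fold change was 1.11 ± 0.19 and it was higher in 10 mice (edgeR adjusted p = 0.0743). Reads that fit both genes are apportioned by the counting tool named by the submitters, so the split between Mt1 and Mt2 is uncertain. Mt2 also overlaps the gene model Gm45774 on the other strand. Mt1 was called by DESeq2 (adjusted p = 4.5e-06), by limma voom with quality weights (adjusted p = 0.00511) and with muscle and marrow covariates (edgeR adjusted p = 0.0118). With edgeR as reported Mt2 alone was called among the 12 tested metallothionein and zinc transport genes, whose median log2 fold change was 0.03. Slc39a14, a zinc and manganese importer, had 0.39 ± 0.14 (adjusted p = 0.9995).

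The promoters of this gene pair were searched on both strands for the core of the metal response element, written TGCACNC or TGCGCNC, to which the metal sensor Mtf1 binds, and for the AP-1 box TGANTCA. The windows run from 250 bases before to 50 after the RefSeq start (GRCm38.p6, both plus strand); matches are in capitals and do not overlap. Mt2 (chr8:94172368-94172667) holds 4 metal response cores and 1 AP-1 box, 79 bases before the start. Mt1 (chr8:94178839-94179138) holds 3 metal response cores and no AP-1 box of these letters. Of 32851 promoters of this length, 0.517% hold at least 4 metal response cores, 1.97% hold at least 3, and 7.81% hold the AP-1 box.
Mt2 promoter: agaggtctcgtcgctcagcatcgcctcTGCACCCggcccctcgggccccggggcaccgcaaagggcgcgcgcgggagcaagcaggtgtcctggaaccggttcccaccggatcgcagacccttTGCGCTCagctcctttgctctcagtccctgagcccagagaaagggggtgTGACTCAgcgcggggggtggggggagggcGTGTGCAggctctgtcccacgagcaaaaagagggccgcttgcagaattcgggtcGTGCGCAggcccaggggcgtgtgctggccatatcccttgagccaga
Mt1 promoter: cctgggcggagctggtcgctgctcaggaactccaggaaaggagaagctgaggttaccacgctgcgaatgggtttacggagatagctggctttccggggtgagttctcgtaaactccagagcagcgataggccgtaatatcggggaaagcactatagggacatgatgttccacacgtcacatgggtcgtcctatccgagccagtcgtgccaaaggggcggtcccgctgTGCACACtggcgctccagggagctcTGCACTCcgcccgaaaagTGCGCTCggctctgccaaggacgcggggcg
The matches describe these letters only. Fosb, Mt2, Wnt1 and Dmp1 are the 4 of the 10 called genes with a promoter in the table, and those of Mt2 and Mt1 are shown because these neighbours share a direction. Matches in the Wnt1 and Dmp1 promoters are not given here.

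Dmp1, the osteocyte matrix protein whose loss causes a hypophosphataemic rickets, was the called gene most tied to bone cells. It lies on chromosome 5 (104202613 to 104214102, plus strand). CKO mice 688, 691, 693 and 698 had 271, 253, 528 and 307 CPM in loaded bones, against 124, 99.4, 139 and 110 CPM in non-loaded bones. WT mice had 239, 294 and 427 CPM in loaded bones (lowest, median and highest), against 122, 179 and 264 CPM in non-loaded bones. The CKO groups were well apart and the WT groups overlapped. The log2 fold change was 1.03 ± 0.14 (SE, n = 11; edgeR adjusted p = 0.0206), with 1.47 in CKO and 0.78 in WT mice. Without mice 686 and 688 it was the same size, 1.03, at an edgeR adjusted p of 0.279.

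The other osteocyte markers were not called by edgeR. Of 17 tested osteocyte markers 1 was called, 8 were above 0 (47.1%, against 52% of all genes) and 4 were above 0 in both genotypes (23.5%, against 18.4%). These shares were near those of all genes. The list's median log2 fold change was −0.05, or 0.10 with the covariates. Mepe, another osteocyte matrix protein, had −0.05 ± 0.19, with 0.39 in CKO and −0.30 in WT mice. Tnfrsf11b, the decoy receptor osteoprotegerin that blocks osteoclast formation, had 0.37 ± 0.11 and was higher in 9 mice (edgeR adjusted p = 0.797), and its target Tnfsf11, the osteoclast-inducing ligand RANKL, had 0.19 ± 0.16. Markers of matrix-forming osteoblasts were mostly below 0: of 24 tested 0 were called, 2 were above 0, 12 were below 0 in both genotypes (50%, against 17.8% of all genes), and the median was −0.19. The list's median was 0.02 in CKO and −0.32 in WT mice. Col1a1, the main collagen of bone, had −0.32 ± 0.17, with −0.04 in CKO and −0.47 in WT mice. Smpd3, a sphingomyelinase needed for mineralisation, had −0.43 ± 0.14, with −0.14 in CKO and −0.60 in WT mice (adjusted p = 0.901). Osteoclast markers were mostly below 0: of 14 tested 0 were called, 3 were above 0 (21.4%, against 52% of all genes), and the median was −0.31. In both genotypes 10 were below 0 (71.4%, against 17.8%). The mean limb difference of these markers was −1.15, −0.80 and −0.73 in CKO mice 691 and 698 and WT mouse 686, and above 0 in 4 of 11 mice. Mice 691 and 698 also had the highest muscle differences of the CKO mice, 2.58 and 0.89, and the lowest erythroid differences, −1.36 and −1.30. With muscle and marrow scores as covariates the osteoclast median was −0.25. Ctsk, the collagen-degrading cathepsin of osteoclasts, had 66.5, 111 and 149 CPM in loaded bones (lowest, median and highest of 11), against 74.5, 164 and 259 CPM in non-loaded bones. Its log2 fold change was −0.50 ± 0.17 (adjusted p = 0.954), and Acp5, the acid phosphatase used to stain osteoclasts, had −0.46 ± 0.17.

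Ccl2 encodes a chemokine that draws in monocytes, and was the 1 gene called by edgeR among the 25 inflammatory targets tested. It lies on chromosome 11 (82035571 to 82037453, plus strand) and overlaps the gene model Gm17268 on the other strand. CKO mice 688, 691, 693 and 698 had 0.906, 1.36, 0.855 and 2.69 CPM in loaded bones, against 0.404, 0.624, 0.308 and 1.47 CPM in non-loaded bones. WT mice had 0.415, 1.01 and 3.90 CPM in loaded bones (lowest, median and highest), against 0.196, 0.494 and 0.833 CPM in non-loaded bones. The groups overlapped in both genotypes, through the high non-loaded bone of mouse 698 in CKO and the low loaded bone of mouse 692 in WT mice. Ccl2 had a log2 fold change of 1.38 ± 0.19 (SE, n = 11; edgeR adjusted p = 0.0206), with 1.12 in CKO and 1.54 in WT mice, and 1.32 without mice 686 and 688 (edgeR adjusted p = 0.193). With no mouse block the call was lost (edgeR adjusted p = 0.598).

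Of the 25 inflammatory targets, 13 were above 0 (52%, the same as for all genes) and 6 were above 0 in both genotypes (24%, against 18.4%). Their median was 0.01. Ptgs2, the inducible cyclooxygenase that starts prostaglandin synthesis, had 1.03, 1.347 and 2.84 CPM in loaded bones (lowest, median and highest of 11), against 0.204, 0.47 and 0.799 CPM in non-loaded bones. The groups did not overlap, the log2 fold change was 1.71 ± 0.29, with 1.73 in CKO and 1.70 in WT mice, and the loaded limb was higher in all 11 mice (edgeR adjusted p = 0.0869). The other genes of prostaglandin synthesis and reception did not share this: of 18 tested 8 were above 0 (44.4%, against 52% of all genes), and the receptor gene Ptger4 had −0.04 ± 0.10. Ccl7, a chemokine gene next to Ccl2, had 1.72 ± 0.44 and was higher in 10 mice (edgeR adjusted p = 0.541; DESeq2 called it, with an adjusted p of 0.015). Il6 was not tested, at 1 to 17 counts per library. In the gp130 group, the receptors and signals of the interleukin 6 family, 10 of 15 genes were above 0 (66.7%, against 52% of all genes). Of these 15, 7 were above 0 in both genotypes (46.7%, against 18.4%). Socs3, its feedback inhibitor, had 0.67 ± 0.13 and Stat3, its transcription factor, had 0.26 ± 0.07, both higher in all 11 mice (edgeR adjusted p = 0.149 and 0.555). Osmr, the oncostatin M receptor, had 0.55 ± 0.11 (adjusted p = 0.149).

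Other genes short of the threshold in edgeR were named after their values were seen. Ihh, a hedgehog ligand that directs osteoblast differentiation, had a log2 fold change of 1.11 ± 0.20 and was higher in all 11 mice (edgeR adjusted p = 0.118). Bmp2, a bone morphogenetic protein, had 0.58 ± 0.11 (adjusted p = 0.128). Has1, a hyaluronan synthase, had 1.53 ± 0.28, and Adamts4, a protease that cuts aggrecan, had 0.91 ± 0.17. Itga5, the fibronectin receptor subunit, had 0.43 ± 0.08 and Lmna, which encodes the nuclear lamins A and C, had 0.36 ± 0.07. Hbegf, a ligand of the EGF receptor, had 1.12 ± 0.26, and Hspa1a, an inducible heat shock protein, had 0.82 ± 0.23. DESeq2 called Ihh, Bmp2, Has1, Adamts4, Itga5, Lmna and Hbegf higher, and of the genes named earlier Fosl1, Junb, Egr3, Rrad, Rgs16, Ptgs2, Socs3 and Osmr. All 16 heat shock genes tested were above 0 in the pooled fit (100%, against 52% of all genes), at 0 calls and a median of 0.09. In both genotypes 10 were above 0 (62.5%, against 18.4%). Their mean limb difference was lowest in mouse 694 (−0.41) and highest in mouse 691 (0.83), as for the muscle genes, and all 20 muscle and all 28 oxidative phosphorylation genes were above 0 in the pooled fit too. With the covariates the heat shock median was 0.08.

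**Figure D3:**
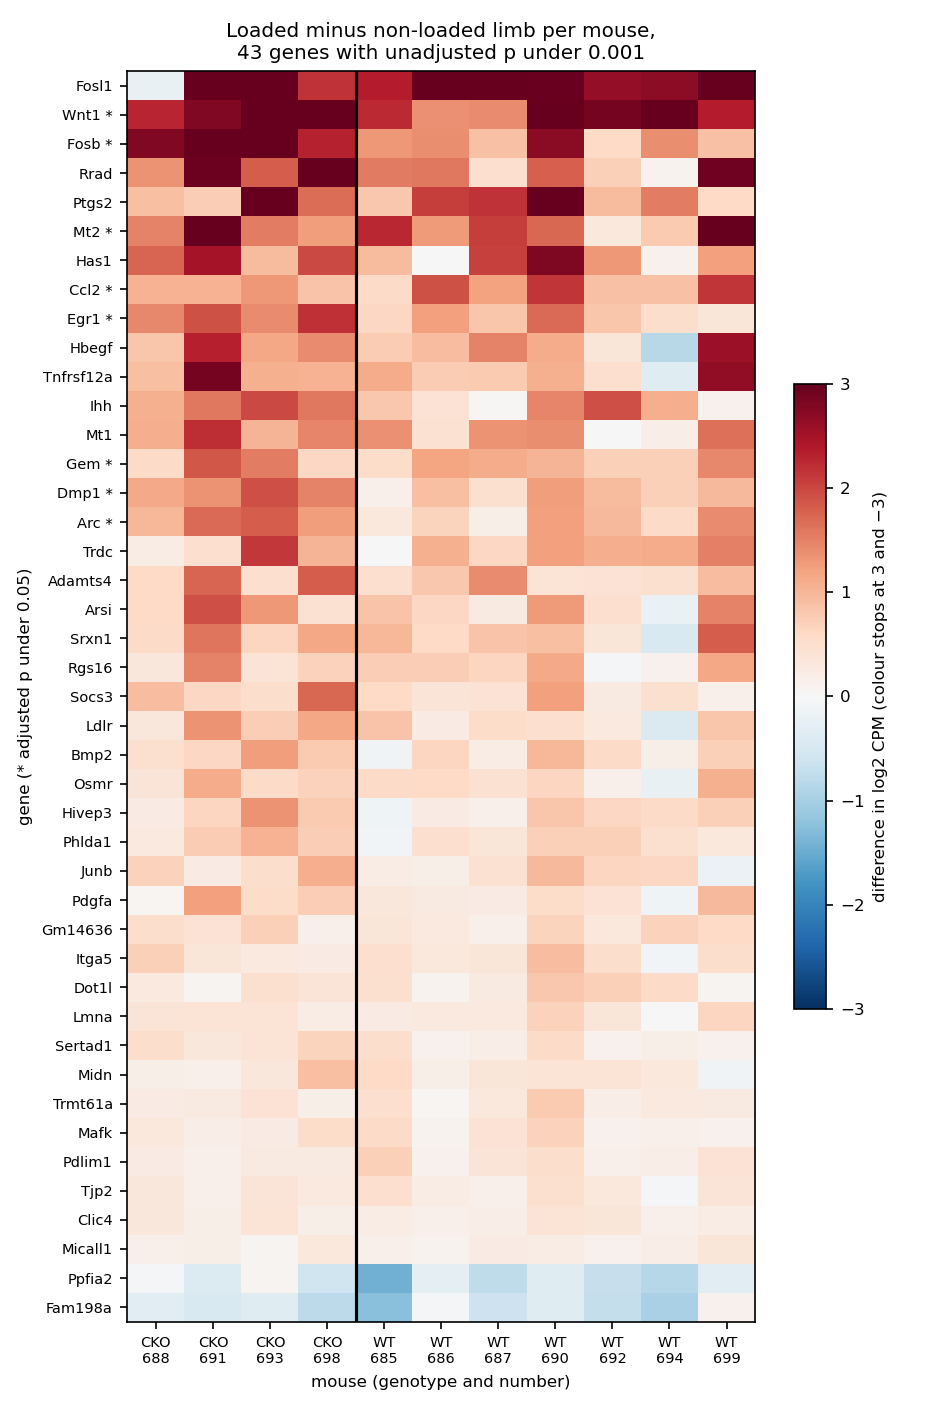
Loaded minus non-loaded limb in log2 CPM for 43 genes with an unadjusted p under 0.001 (rows, ordered by pooled log2 fold change; called genes have an asterisk), in 4 CKO mice (left of the line) and 7 WT mice. 41 rows are mostly red (higher in the loaded limb) and 2, Ppfia2 and Fam198a, are mostly blue.

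On the lower side no gene passed the test. The 5 named genes with the smallest p that were lower in both genotypes were Fam198a, Ppfia2, Ing4, Adamts10 and Adamts18, each lower in the loaded limb of 10 of 11 mice. Of all genes tested 86 were lower in at least 10 mice (0.489%) and 142 were higher in at least 10 (0.808%). Fam198a, a Golgi protein also called Gask1a, had a log2 fold change of −0.54 ± 0.12 (edgeR adjusted p = 0.299), and Ing4, a chromatin reader, had −0.18 ± 0.05 (adjusted p = 0.503). DESeq2 with the mouse as a block called Fam198a, Ppfia2, Ing4 and the unnamed model Gm2000 lower.

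How far the response was shared was read from each genotype's own effect. By their labels the 4 CKO and 7 WT mice have no library in common. By Ltbp2 the loaded libraries of CKO mouse 688 and WT mouse 686 go against these labels, so each genotype's effect may hold a library of the other. A stricter test asked that a gene pass in both genotypes, taking the larger of the CKO and WT p-values and the same sign. In the edgeR fit 0 genes were called by it (0%), with Wnt1 at an adjusted p of 0.0662. At an unadjusted p under 0.05 in each genotype, 70 genes were higher in both (0.398%), 9 were lower in both (0.0512%) and 7 had opposite signs (0.0398%). DESeq2 called 9 genes in both genotypes, all of them among the 10 called in the pooled fit, and limma voom called 0 (5 with quality weights). For each genotype alone edgeR called 5 genes in CKO (0.0284%) and 2 in WT mice (0.0114%).

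The genes with the smallest p in one genotype usually had the same sign in the other. In CKO mice 30 genes had an unadjusted p under 0.001, and 26 of them had the same sign in WT mice (86.7%), 25 of 27 among those higher and 1 of 3 among those lower. Of 21 such genes in WT mice, 18 had the same sign in CKO mice (85.7%), all 16 of those higher and 2 of 5 of those lower. At an unadjusted p under 0.05 the share was 54.3% of the 932 genes chosen in CKO mice (5.3% of those tested) and 56.7% of the 600 chosen in WT mice (3.41%). Over all 17585 genes the share was 36.2%, below an even split, and the CKO and WT effects correlated at r = −0.14 and rho = −0.30 across genes, which are not independent replicates. The share over all genes varied with the mice used: it was 33.2% without mice 686 and 688, 55% without mouse 694 and 28.7% without mouse 699, and 60.5% with muscle and marrow scores as covariates. Lists of proliferation, muscle and respiration had medians that differed between the genotypes, but their mice overlapped, and the difference was not tested over mice. Of 28 cell cycle genes 0 had the same sign in both genotypes, with a median of −0.38 in CKO and 0.31 in WT mice. Without mice 686 and 688 these medians were −0.81 and 0.40. The mean limb difference of these genes ran from −1.33 to 0.93 in CKO and from −0.88 to 1.07 in WT mice. The 20 muscle genes had medians of 0.79 in CKO and 0.004 in WT mice, and the 28 oxidative phosphorylation genes 0.41 in CKO and −0.06 in WT mice. The SD between mice was 1.29 in CKO and 0.83 in WT mice for muscle, and 0.75 and 0.51 for oxidative phosphorylation. With the muscle and marrow scores as covariates 8 of the 10 called genes passed the test, all but Egr1 and Fosb. Without mice 686 and 688, which leaves 3 CKO and 6 WT mice, 0 genes were called in both genotypes by edgeR and Wnt1 had an adjusted p of 0.13. At an unadjusted p under 0.001, 26 of 44 genes chosen in CKO mice then had the same sign in WT mice (59.1%), and 15 of 18 chosen in WT mice had the same sign in CKO mice (83.3%). At an unadjusted p under 0.05 the shares were 28.3% of the 3594 genes chosen in CKO mice and 42.0% of the 723 chosen in WT mice. Of the AP-1 list 8 of 10 genes, of the EGR list 15 of 21 and of the RGK list 9 of 11 were above 0 in both genotypes without these mice. Of all 17646 genes tested there, 2818 were. The lists were chosen with these data known.

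**Figure D4:**
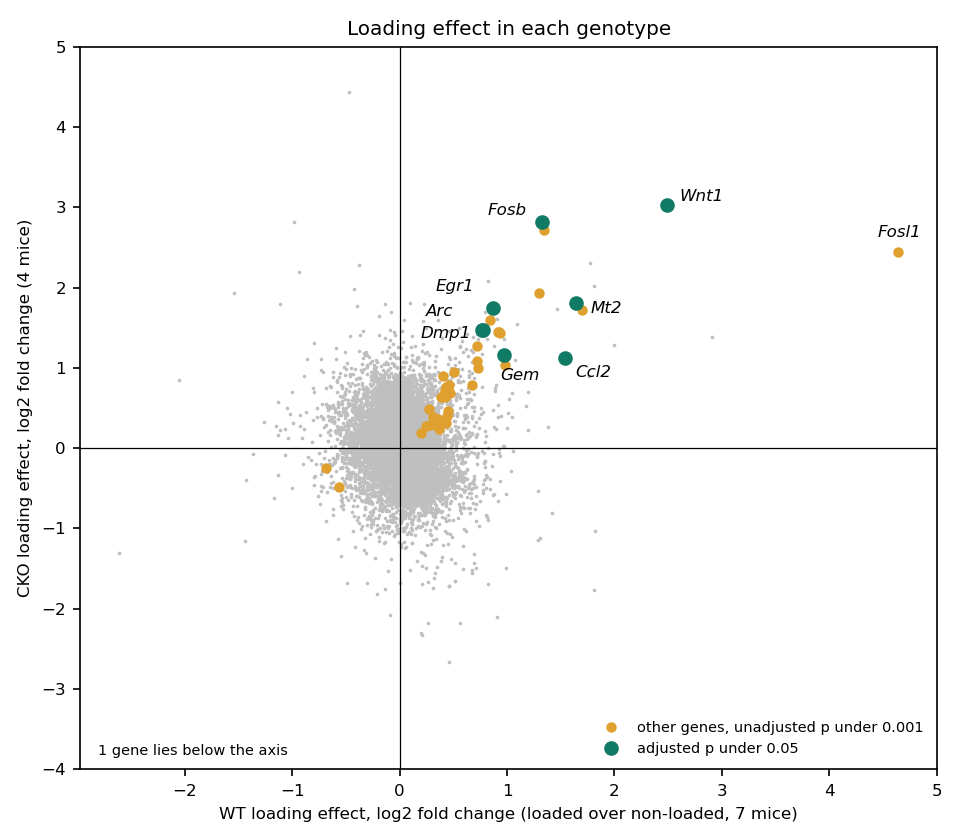
Loading effect in CKO mice (vertical) against WT mice (horizontal), as log2 fold changes of loaded over non-loaded bone, for 17585 genes. Of 43 marked genes with an unadjusted p under 0.001 (called genes green and labelled, others orange), 41 lie above 0 in both genotypes; 1 gene lies below the vertical axis range. The marked genes were chosen by the pooled p over these same mice, which favours genes with the same sign in both genotypes. Their shared sign is therefore not a separate test.

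The CKO effect minus the WT effect was 1.503 ± 0.357 (log2) for Fosb, 0.87 ± 0.25 for Egr1, 0.71 ± 0.27 for Arc and 0.69 ± 0.22 for Dmp1. It was 0.55 ± 0.49 for Wnt1, 0.17 ± 0.50 for Mt2, 0.19 ± 0.28 for Gem and −0.42 ± 0.38 for Ccl2. No gene passed the edgeR test of this difference after adjustment: Fosb, Egr1, Arc and Dmp1 each had an adjusted p of 0.586, with unadjusted p of 0.00127, 0.00474, 0.0227 and 0.0086, and 692 genes of all (3.94%) had an unadjusted p under 0.05. Without mice 686 and 688 the difference was 1.54 for Fosb, 1.05 for Egr1, 0.85 for Arc and 0.84 for Dmp1, and each had an edgeR adjusted p of 0.249. In that fit of 3 CKO and 6 WT mice, 3490 of 17646 genes had an unadjusted p under 0.05 for the difference, and 0 passed after adjustment. The share of genes that differ between the genotypes at this threshold thus depends strongly on these mice. Averaged over the 10 called genes, the limb difference was 1.34, 2.15, 2.17 and 1.68 log2 units in CKO mice 688, 691, 693 and 698. In WT mice it was 1.09, 1.24, 1.17, 1.97, 1.13, 1.21 and 1.62 in mice 685, 686, 687, 690, 692, 694 and 699. The ranges overlap, with CKO mice 688 and 698 among the WT values and WT mice 690 and 699 among the CKO values. The 10 genes were called over these same mice, which favours genes with similar differences in all of them. The overlap is therefore not a separate test, and the loaded library of mouse 688 goes against its label by Ltbp2.

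Wnt1 was called whichever mouse was left out and in all 24 alternative settings run, with log2 fold changes of 2.56 to 2.89. Gem lost the call without mouse 686, 690 or 693, with edgeR adjusted p up to 0.0642, and Ccl2 without mouse 686, 688, 690 or 693 (up to 0.0666). Dmp1 lost it without mouse 686, 688, 690, 691, 693 or 698 (up to 0.0895), and Mt2 without mouse 685, 686, 687, 688, 690, 693 or 698 (up to 0.0895). Egr1 lost it without mouse 686, 687, 688, 690, 691 or 693 (up to 0.0943), and Fosb without mouse 685, 686, 688, 690, 691, 693 or 698 (up to 0.0941). Arc was called without mouse 685 or 687 and lost the call without any of the others (up to 0.184). The fold changes kept their sign across all alternatives. On the log2 scale Mt2 ranged from 1.405 to 1.84, Fosb from 1.73 to 2.07, Ccl2 from 1.28 to 1.49 and Egr1 from 1.09 to 1.31. Dmp1 ranged from 0.94 to 1.14, Gem from 0.89 to 1.09 and Arc from 0.88 to 1.12.

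**Figure D5:**
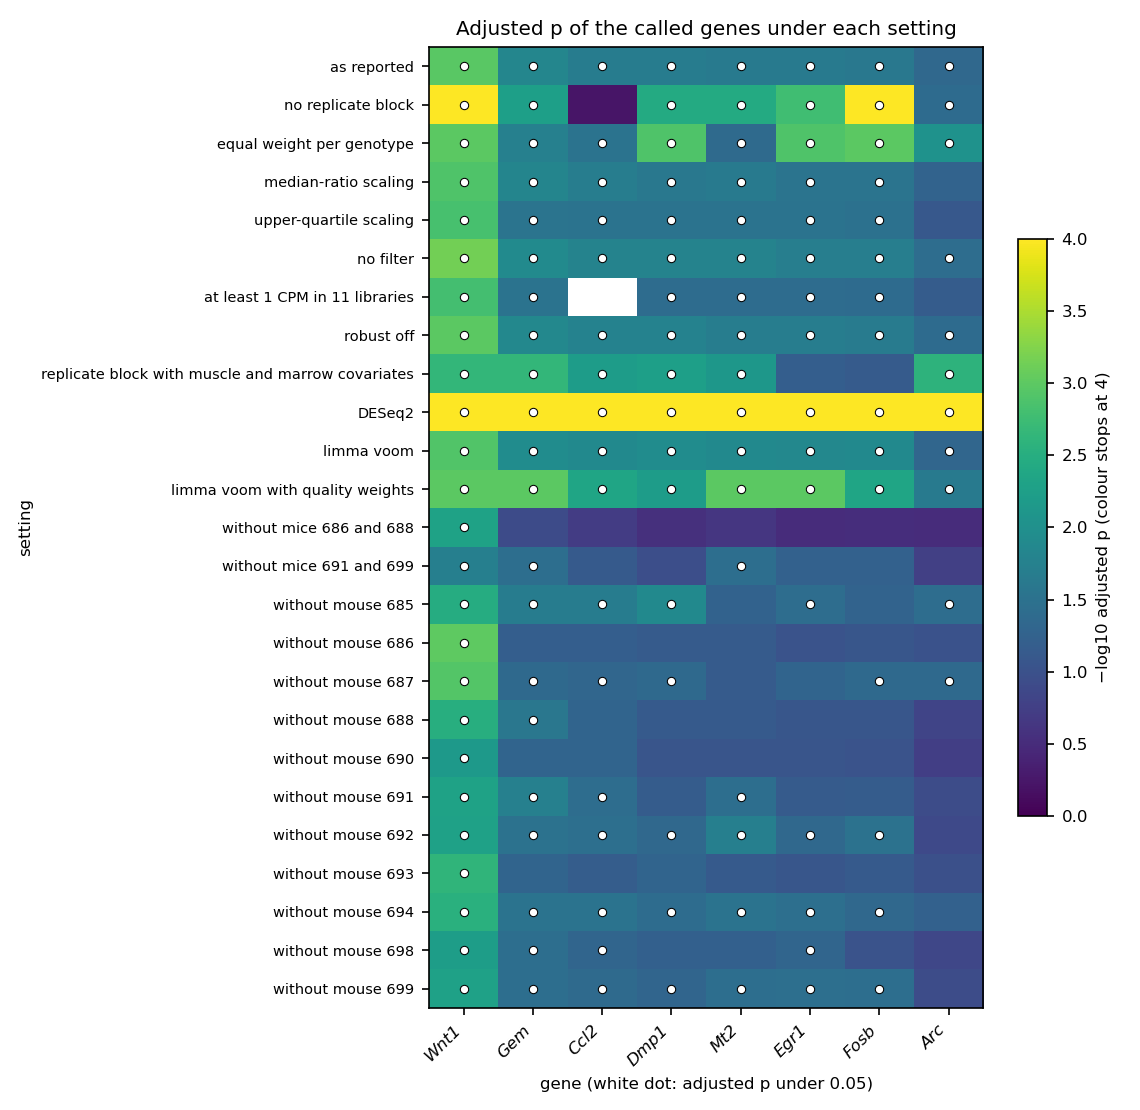
Adjusted p of 8 called genes (columns) as reported and under 24 alternative settings (rows), as −log10 on a colour scale; a white dot marks an adjusted p under 0.05 and a blank square a gene not tested. Wnt1 has a dot in every row and Arc in 10 of the 24 alternatives.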

How the data were processed

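Expected counts per gene were deposited by the authors, 1 file per library, as whole numbers. STAR, RSEM and the build GRCm38 are named in the submitters' processing notes, without versions. Per the labels' protocols, 4 ng of total RNA went into a stranded total RNA kit. Of 25471 genes 25428 were matched to a symbol; coordinates come from GENCODE M21. Values were rounded to whole counts, which changed none, and no library was left out. All p-values measure the spread between mice, since each pair is a separate animal.

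The main fit used edgeR 4.0.16 (R 4.3.3): filterByExpr by load left 17585 genes, scaling was by TMM, and loading was tested by glmQLFit (robust) and glmQLFTest with the mouse as a block (10 residual degrees of freedom, and a BCV of 0.248 between libraries). A second blocked fit gave each genotype its own loading effect (9 residual degrees of freedom). Benjamini-Hochberg adjustment ran over all genes tested, with calls under 0.05. Each SE was obtained from the log2 fold change and the F statistic. CPM values are on the TMM-scaled libraries, and limb differences use log2 CPM with a prior count of 2. The fits were tested on simulated data.

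A mouse number marks the limbs of 1 animal and pairs the libraries by design; their deviations from the group means correlated at −0.29 to 0.46 (median 0.20), over 0.1 in 7 of 11 mice, and the own limb correlated best in 3. No 2 libraries of a group were alike (chi-square per gene of 20.6 to 402 over 54 pairs).

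The members and the 44 gene lists (744 genes) were chosen with earlier results of these data known. Named genes were the 12 called genes with the largest change in each direction, among named genes with a mean of at least 1 CPM and the same sign in both genotypes; where fewer than 5 were called in a direction, the 5 with the smallest p; genes called in both genotypes; up to 4 called members of each list; and chosen genes, of which Il6 was not tested. Of the called genes 2 are not reported here. Other genes were named after their values were seen. Alternatives were other scalings and filters, DESeq2 1.42.0, limma 3.58.1 voom, no block, equal weight per genotype, tissue scores as covariates and leaving out mice. Counts measure relative levels, and their number limits the precision of genes near 1 CPM.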

Additional observations from a re-analysis of the deposited data

Results flagged for a closer look

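Of 204 groups of 4 or 7 values examined, the limb differences of the named genes and the levels of the called genes, 13 had 1 value far from the others; chance alone flags about 1 in 20, or 10.2. Explanations for these values were not tested. Among the limb differences in log2 CPM, Mt2 was 3.03 in CKO mouse 691 (the nearest other CKO mouse had 1.52), Tnfrsf12a was 2.88 in CKO mouse 691 (nearest 1.06), and Lmna was 0.22 in CKO mouse 698 (nearest 0.39). In WT mice, Fosb was 2.70 in mouse 690 (nearest 1.40), Socs3 was 1.24 in mouse 690 (nearest 0.60), Ifitm5 was 0.27 in mouse 690 (nearest −0.44), and Tnc was −0.85 in mouse 685 (nearest −0.23). WT mouse 690 thus stands out in 3 of these 7 differences.

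Among the levels, Wnt1 was at 13.8 CPM in the loaded bone of CKO mouse 693 (nearest 5.88) and at 9.87 CPM in the loaded bone of WT mouse 690 (nearest 6.49). Fosb was at 11.3 CPM in the loaded bone of WT mouse 690 (nearest 6.78), and Ccl2 was at 3.90 CPM in the loaded bone of WT mouse 699 (nearest 1.57). In non-loaded bones Egr1 was at 25.9 CPM in CKO mouse 693 (nearest 19.5) and at 53.1 CPM in WT mouse 699 (nearest 26.9). The high Egr1 level of the non-loaded bone of mouse 699 goes with the smallest Egr1 limb difference, 0.36.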

How the results depend on the processing

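The number of genes called higher was 10 and moved most with the tool: 56 with DESeq2 and 44 with limma voom and quality weights, against 10 with plain voom. It was 17 with no replicate block, 44 with the block and muscle and marrow covariates, 6 with a filter of 1 CPM in 11 libraries, 3 without mice 686 and 688, 4 without mice 691 and 699, and 2 to 13 when each mouse was left out in turn. The 6 and the 3 are all among the 10. The number called lower was 0, 4 with DESeq2, 1 with the covariates, and 0 to 0 when each mouse was left out; the number called in both genotypes was 0, 9 with DESeq2, 5 with quality weights, 1 (Wnt1) with no block, 1 (Dmp1) with the covariates, and 0 to 0 when each mouse was left out. The paired block, which the design calls for, thus gave fewer calls than no block (10 against 17). The cause of these shifts was not tested.

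None of the 10 called genes changed sign: of their 237 values under alternatives 173 passed the test and 64 did not. Of 1889 values for the other named genes 80 passed the test and 26 had the other sign, all for genes near 0. These were Nr4a1 without mice 691 and 699 (−0.0627); Sost with covariates (0.0302); Ptger4 with covariates (0.0151), quality weights (0.00659) or without mice 691 and 699 (0.0168); Mepe with no block (0.0495), equal weight (0.0451) or covariates (0.11); Postn with equal weight (0.000472), covariates (0.0174) or quality weights (0.0492); and Tlr4 with no block (−0.000867), upper-quartile scaling (−0.00316) or without mice 686 and 688 (−0.0359). Leaving out each mouse in turn gave −0.237 to 0.00614 for Sost, −0.099 to 0.0276 for Ptger4, −0.161 to 0.0982 for Mepe, −0.118 to 0.0594 for Postn and −0.0143 to 0.0574 for Tlr4. List medians moved by less than the SD between mice of the list's mean limb difference in all 1056 list settings. This limit was wide: the SD was 0.75 for the Wnt ligands, whose median was 0.24, and 1.04 for the muscle genes, whose median was 0.28. Changes of sign can stay within it, as for the Wnt ligand and osteocyte medians with the covariates. Ccl2 lies near 1 CPM and was not tested under the 1 CPM filter.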
